A study of Homo sapiens with 9 samples.

Results

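Kruppel-like factors are zinc finger transcription factors that bind GC-rich and CACCC-containing DNA. The 9 members described here, KLF2, KLF3, KLF4, KLF5, KLF6, KLF9, KLF10, KLF11 and KLF13, were taken as the rows of the deposited table that carry these gene symbols, and were 9 of 27407 features. All 9 passed the filter on low counts, which kept 18767 features. The study measured total RNA by sequencing in Weri-RB1/CRP, given in the labels as a retinoblastoma cell line with carboplatin resistance. Its groups carried the short hairpin RNA shSNHG1#2 or shSNHG1#1, both designed to lower the long noncoding RNA SNHG1, or the control hairpin shNC, with 3 libraries in each group. No library is labelled as treated with carboplatin or as the parental line, and all groups share the resistant background and the culture medium. Whether the hairpin lines were clones or pools, and which promoter drives the hairpins, is not given in the sources used here. The transcript of SNHG1 was not analysed here, and the groups are those of the labels.

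Members of the family differ in the partners that their amino-terminal parts recruit. KLF2, KLF4, KLF5 and KLF6 act largely as activators, in part through acetyltransferases such as CBP. KLF3 recruits the corepressor CtBP. KLF9, KLF10, KLF11 and KLF13 carry a helix that binds the SIN3A corepressor. In the eye, KLF4 and KLF5 are best known from the cornea, and in rodents KLF4 and KLF9 restrain axon growth of retinal ganglion cells. In bulk RNA, fewer cells with a transcript and less transcript per cell cannot be told apart.

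Promoter sequences are shown for 4 members that differed from shNC in the same direction with both hairpins. KLF6 and KLF5 were lower, and KLF4 and KLF9 were higher. For 7 of the 9 members, entries in the RefSeq promoter table for GRCh38.p14 were used, with 9 promoters in all. No window was used for KLF3 or KLF10, although KLF10 was also lower with both hairpins. The selection left out a whole chromosome by hand, so a member without a window may still have an entry. Each line gives the 250 bases before a start site, 5′ to 3′ on the strand of the gene. Capitals mark the CACCC box, the GC box GGGCGG that SP and Kruppel-like factors bind, and the E-box CACGTG bound by factors such as MYC and MAX, each read on either strand.
KLF6, chr10:3785210-3785459, minus strand: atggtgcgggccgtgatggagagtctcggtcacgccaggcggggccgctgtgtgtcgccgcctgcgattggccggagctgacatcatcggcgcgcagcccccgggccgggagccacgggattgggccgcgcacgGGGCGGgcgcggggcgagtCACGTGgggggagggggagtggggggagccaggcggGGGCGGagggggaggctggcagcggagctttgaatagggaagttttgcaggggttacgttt
KLF5, chr13:73058755-73059004, plus strand: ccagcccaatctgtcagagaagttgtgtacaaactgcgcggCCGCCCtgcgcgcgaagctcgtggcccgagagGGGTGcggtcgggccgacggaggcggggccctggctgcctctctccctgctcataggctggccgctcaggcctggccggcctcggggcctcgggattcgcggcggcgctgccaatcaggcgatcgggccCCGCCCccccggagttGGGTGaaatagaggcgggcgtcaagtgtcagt
KLF4, chr9:107489770-107490019, minus strand: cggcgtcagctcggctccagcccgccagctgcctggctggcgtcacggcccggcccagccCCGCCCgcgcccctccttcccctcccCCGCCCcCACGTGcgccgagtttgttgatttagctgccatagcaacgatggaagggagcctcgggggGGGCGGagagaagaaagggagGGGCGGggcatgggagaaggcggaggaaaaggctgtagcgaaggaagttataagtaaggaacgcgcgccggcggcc
KLF9, chr9:70414658-70414907, minus strand: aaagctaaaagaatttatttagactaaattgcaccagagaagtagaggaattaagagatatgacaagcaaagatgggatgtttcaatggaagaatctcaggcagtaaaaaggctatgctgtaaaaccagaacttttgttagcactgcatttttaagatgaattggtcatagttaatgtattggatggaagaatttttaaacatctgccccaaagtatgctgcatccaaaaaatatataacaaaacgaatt
The KLF6 window held 2 copies of GGGCGG and a single CACGTG, which starts 97 bases before the start site. The KLF4 window held 4 copies of GGGCGG, and its single CACGTG starts 157 bases before the start site. The KLF5 window, from the second of its 2 entries, held 2 copies of GGGCGG and 2 of CACCC. The first KLF5 entry, chr13:73054726-73054975 and not printed, held 0 copies of GGGCGG and 1 of CACCC, with G and C at 40.8% of its bases. The KLF9 window held no copy of these motifs. G and C made up 32.4% of the bases in the KLF9 window, against 72.4% for KLF6, 70.8% for the printed KLF5 window and 69.2% for KLF4. Among 34943 promoters of the same length, 54.7% held CACCC, 42.5% held GGGCGG and 6.32% held CACGTG on either strand. These matches describe the letters of the windows and are not measured binding sites.

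The estimated counts of a library totalled 21502093 to 21606498. Levels are given in FPKM, fragments per kilobase of transcript after scaling by library size. The labelled tissue was set beside marker lists. In this line, labelled as retinoblastoma, most photoreceptor markers were near 0 and epithelial markers were high in every group. The identity of the line was not tested. Of the 14 photoreceptor markers that the table lists, 12 averaged under 1 FPKM whatever the group. The highest CRX level, a photoreceptor transcription factor, was 0.03 FPKM. The other two markers were GNAT2, a cone transducin gene, at 16.3 ± 0.44 FPKM in shSNHG1#2, 16.5 ± 0.358 FPKM in shSNHG1#1 and 18.6 ± 0.874 FPKM in shNC, and THRB at 2.31 ± 0.12, 2.01 ± 0.121 and 1.88 ± 0.266 FPKM in the same order of groups (SD, n = 3). The 8 neural markers that the table lists summed to 174 to 175.3 FPKM in shSNHG1#2 and 171 to 175 FPKM in shSNHG1#1, against 216 to 218 FPKM in shNC. Of the 6 tested, 2 rose and 2 fell with each hairpin, and 1 fell with shSNHG1#1 when shSNHG1#1 replicate 1 was left out. The median log2 fold change of these 6 was 0.12 with shSNHG1#2 and 0.14 with shSNHG1#1. ENO2, a neuronal enolase gene, averaged 43.8 FPKM in shSNHG1#2 and 41.2 FPKM in shSNHG1#1, against 110 FPKM in shNC. The fall of ENO2 was larger than that of the neural sum, so the other neural markers together were higher with each hairpin. SNAP25, a synaptic gene, rose 1.42-fold with each hairpin. Summed over 10 epithelial markers, the level was 2291 to 2423 FPKM in shSNHG1#2, 2236 to 2427 FPKM in shSNHG1#1 and 2392 to 2411 FPKM in shNC. Of these 10, 3 rose and 5 fell with shSNHG1#2, and 3 rose and 4 fell with shSNHG1#1. For all features these shares were 23.3% and 22.8% with shSNHG1#2, and 24.5% and 23.5% with shSNHG1#1. ELF3, an epithelial transcription factor gene, fell 1.97-fold with shSNHG1#2 and 2.04-fold with shSNHG1#1, and EPCAM, an adhesion gene, rose 1.85-fold and 1.98-fold. The part of these marker changes in the other results was not tested.

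The library shSNHG1#1 replicate 1 had the highest sums of fibroblast, endothelial and leukocyte markers, and stood furthest apart for the fibroblast markers. Under 1 FPKM on average in every group were 4 of the 7 fibroblast, 4 of the 6 endothelial and 4 of the 5 leukocyte markers. Its 7 fibroblast markers summed to 14.84 FPKM, against 6.04 and 6.65 FPKM in the other shSNHG1#1 libraries, 5.99 to 7.23 FPKM in shSNHG1#2 and 3 to 3.82 FPKM in shNC. Its 6 endothelial markers summed to 6.42 FPKM, against 1.45 and 1.14 FPKM in the other shSNHG1#1 libraries, 1.54 to 4.95 FPKM in shSNHG1#2 and 2.41 to 2.76 FPKM in shNC. Its 5 leukocyte markers summed to 4.76 FPKM, against 3.21 and 3.97 FPKM in the other shSNHG1#1 libraries, 2.28 to 2.7 FPKM in shSNHG1#2 and 1.82 to 2.49 FPKM in shNC. LUM, which encodes the matrix protein lumican, reached 3.92 FPKM in this library, against 0.22 and 0.2 FPKM in the others of its group. The same library had the highest FPKM of its group for KLF2, KLF4, KLF6, KLF9, KLF11 and KLF13. Values without it are given beside each of the 9 members against shNC, and list counts without it where a count of risers or fallers moves by over 1.5 times. Of 54 values of called genes chosen from the other lists with shSNHG1#1, 52 kept their call without it, and SP9 and S1PR1 did not. These 54 were chosen as called with that library included, so a call could be lost but not gained.

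Against shNC, KLF6 was lower by more than 2-fold and KLF10 by about 2-fold with each hairpin, KLF5 was lower by a smaller amount, while KLF9 and KLF4 were higher. With shSNHG1#1, 2 members rose, 5 fell and 2 did not pass the test, by edgeR's quasi-likelihood F test on counts with an adjusted p below 0.05. With shSNHG1#2, 2 rose, 3 fell and 4 did not pass. Over all features tested, 24.5% rose and 23.5% fell with shSNHG1#1, 48.1% in all, and 23.3% rose and 22.8% fell with shSNHG1#2, 46.2% in all. In CPM (counts per library scaled by TMM), the libraries of the compared groups did not overlap for 7 members with shSNHG1#2 and 7 with shSNHG1#1, against 55.8% and 56.3% of all features. With library totals alone in place of TMM scaling, 60.9% of the calls with shSNHG1#2 were higher, against 50.5% with TMM. The median log2 fold change of the 9 members was -0.12 with shSNHG1#1 and -0.04 with shSNHG1#2, against 0.02 and 0.01 over all features. Both contrasts share the shNC libraries. Separate cultures are not stated for the replicates, and the p-values then cover the spread between these libraries alone, which may be technical.

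**Figure D1:**
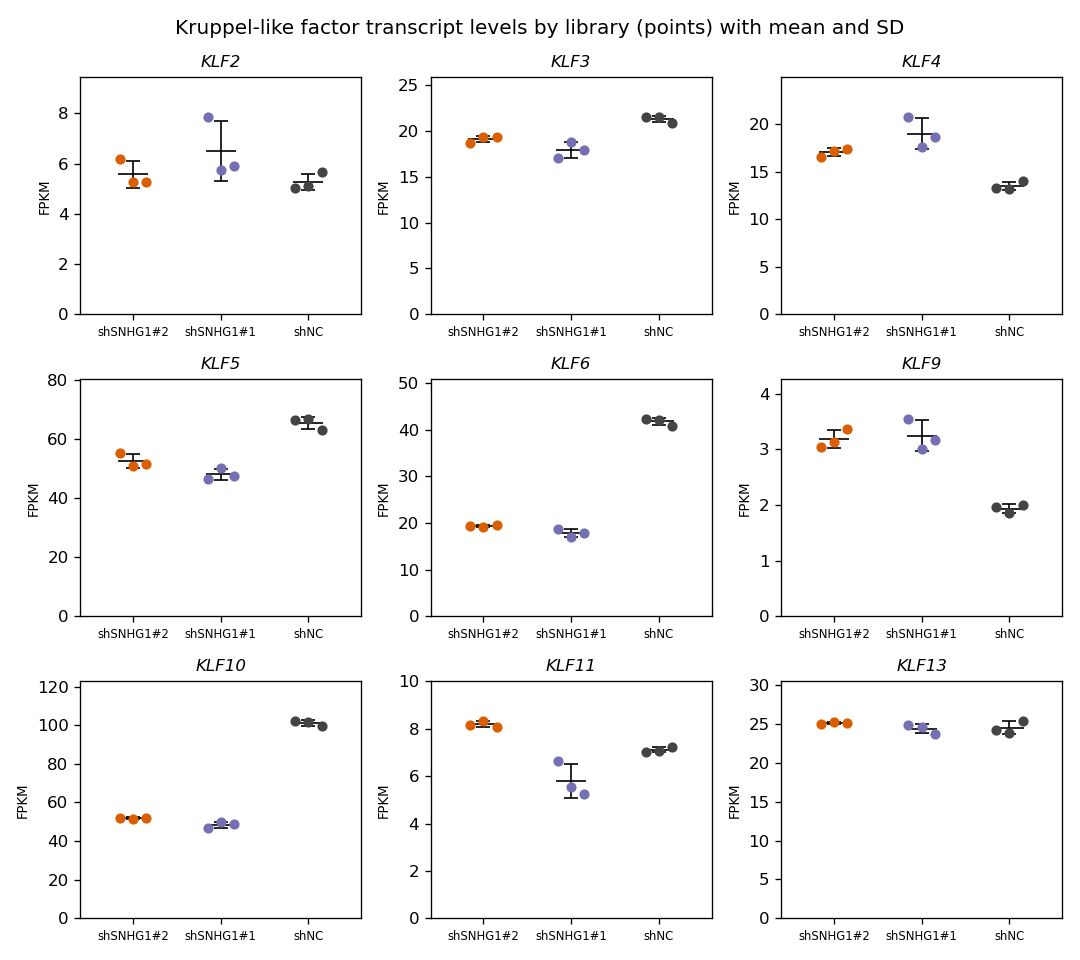
Level of each of the 9 Kruppel-like factor genes in FPKM (vertical axis, from 0 in each panel) in every library, with shSNHG1#2 on the left, shSNHG1#1 in the middle and shNC on the right; points are the 3 libraries of a group, the dash is their mean and the bar 1 SD. KLF6, KLF10 and KLF5 lay below shNC in all 6 hairpin libraries, KLF4 and KLF9 lay above it in all 6, and KLF11 was at 8.09 to 8.34 FPKM in shSNHG1#2 but 5.23 to 6.62 FPKM in shSNHG1#1.

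Among the activator members, KLF6 changed most. KLF6 is expressed in most tissues and is induced early after injury. It stood at 19.35, 19.26 and 19.51 FPKM in shSNHG1#2 and at 18.78, 17.06 and 17.83 FPKM in shSNHG1#1, against 42.37, 42.14 and 40.82 FPKM in shNC. The 3 groups did not overlap, and every hairpin library lay far below every shNC library. KLF6 fell 2.26-fold with shSNHG1#2 (log2 fold change -1.17, SE 0.03, adjusted p = 1.2e-09) and 2.41-fold with shSNHG1#1 (log2 fold change -1.27, SE 0.04, adjusted p = 6.3e-10). In these contrasts, 2.26% and 1.91% of features had a lower log2 fold change. Without shSNHG1#1 replicate 1 the log2 fold change with shSNHG1#1 was -1.31.

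KLF5, which drives proliferation in many epithelia, stood at 55.05, 50.70 and 51.56 FPKM in shSNHG1#2 and at 46.33, 50.19 and 47.35 FPKM in shSNHG1#1, against 66.48, 66.78 and 63.08 FPKM in shNC. All 3 groups were separate, with shSNHG1#1 lowest. KLF5 fell 1.32-fold with shSNHG1#2 (log2 fold change -0.40, SE 0.04, adjusted p = 1.5e-05) and 1.42-fold with shSNHG1#1 (log2 fold change -0.50, SE 0.04, adjusted p = 2.1e-06). With shSNHG1#1 replicate 1 left out, the log2 fold change of KLF5 with shSNHG1#1 was -0.49.

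KLF4, which acts in epithelial differentiation and in reprogramming to pluripotency, moved the other way. It stood at 16.54, 17.15 and 17.34 FPKM in shSNHG1#2 and at 20.76, 17.59 and 18.58 FPKM in shSNHG1#1, against 13.26, 13.14 and 13.96 FPKM in shNC. The groups did not overlap, and shSNHG1#1 was highest. KLF4 rose 1.2-fold with shSNHG1#2 (log2 fold change 0.27, SE 0.06, adjusted p = 0.0029) and 1.36-fold with shSNHG1#1 (log2 fold change 0.45, SE 0.06, adjusted p = 7.0e-05). Without shSNHG1#1 replicate 1, its log2 fold change with shSNHG1#1 was 0.37 with an adjusted p of 6.4e-05.

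The ratio of KLF6 to KLF4, which combines these changes, was 1.17, 1.12 and 1.13 in shSNHG1#2 and 0.905, 0.970 and 0.960 in shSNHG1#1, against 3.20, 3.21 and 2.92 in shNC, all as ratios of FPKM within a library. The levels of both genes lay close to each other in every hairpin library, while KLF6 was the more abundant in shNC.

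KLF2, known for its induction by blood flow in endothelial cells, stood at 6.19, 5.26 and 5.28 FPKM in shSNHG1#2 and at 7.87, 5.75 and 5.91 FPKM in shSNHG1#1, against 5.03, 5.13 and 5.65 FPKM in shNC. Replicate 1 of shSNHG1#1 was the highest of all 9 libraries. KLF2 did not pass the test with shSNHG1#2 (log2 fold change -0.00, 95% interval -0.29 to 0.28, adjusted p = 0.99) or with shSNHG1#1 (log2 fold change 0.23, 95% interval -0.06 to 0.51, adjusted p = 0.17). Without that library the value with shSNHG1#1 was 0.05.

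KLF3, a CtBP-binding repressor first studied in blood and fat cells, stood at 18.69, 19.34 and 19.30 FPKM in shSNHG1#2 and at 17.08, 18.84 and 17.90 FPKM in shSNHG1#1, against 21.55, 21.5 and 20.90 FPKM in shNC. Every hairpin library was below every shNC library, and the hairpin groups overlapped. On counts the difference was smaller than in FPKM. KLF3 fell 1.08-fold with shSNHG1#1 (log2 fold change -0.12, SE 0.03, adjusted p = 0.012), a call that was lost with library totals alone (log2 fold change -0.07, adjusted p = 0.121). It was -0.10 (adjusted p = 0.0273) when shSNHG1#1 replicate 1 was left out. With shSNHG1#2 it did not pass (log2 fold change -0.08, 95% interval -0.15 to -0.01, adjusted p = 0.059). That value passed with only these groups fitted (adjusted p = 0.0461), in FPKM with limma (adjusted p = 0.0112), and without shSNHG1#1 replicate 1 (adjusted p = 0.0191) or replicate 2 (adjusted p = 0.0442). The transcript length implied by counts over FPKM was 4775 to 4808 bases in shSNHG1#2 and 4706 to 5103 bases in shSNHG1#1, against 4229 to 4451 bases in shNC. KLF3-AS1, an antisense gene of KLF3, averaged 0.680 ± 0.0755 FPKM in shSNHG1#2, 0.583 ± 0.0404 FPKM in shSNHG1#1 and 0.670 ± 0.125 FPKM in shNC (SD, n = 3), and with no strand setting stated, reads from any stretch that both genes share could not be assigned to one of them.

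Of the SIN3A-binding members, KLF10 changed most. KLF10 is an early target of TGF-beta signalling that restrains growth in epithelial cells. It stood at 52.18, 51.43 and 51.94 FPKM in shSNHG1#2 and at 46.60, 49.96 and 48.60 FPKM in shSNHG1#1, against 102.33, 101.65 and 99.56 FPKM in shNC. The groups did not overlap, and the highest hairpin library stood at 52.18 FPKM, against 99.56 FPKM in the lowest shNC library. KLF10 fell 2.03-fold with shSNHG1#2 (log2 fold change -1.02, SE 0.03, adjusted p = 1.9e-09) and 2.14-fold with shSNHG1#1 (log2 fold change -1.10, SE 0.03, adjusted p = 8.7e-10). In these contrasts, 3.15% and 2.66% of features had a lower log2 fold change. With library totals alone the log2 fold change of KLF10 with shSNHG1#2 was -0.96. Leaving out shSNHG1#1 replicate 1 gave -1.08 with shSNHG1#1.

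KLF9, which glucocorticoid and thyroid hormones induce in many cells, was the least abundant member in every group. It stood at 3.05, 3.13 and 3.37 FPKM in shSNHG1#2 and at 3.55, 3.01 and 3.16 FPKM in shSNHG1#1, against 1.96, 1.85 and 2.00 FPKM in shNC. The hairpin groups overlapped each other and lay above shNC. KLF9 rose 1.56-fold with shSNHG1#2 (log2 fold change 0.64, SE 0.08, adjusted p = 6.8e-05) and 1.62-fold with shSNHG1#1 (log2 fold change 0.69, SE 0.08, adjusted p = 3.2e-05), and 9.77% and 10% of features had a higher value. Without shSNHG1#1 replicate 1 the log2 fold change with shSNHG1#1 was 0.61.

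KLF11, a close relative of KLF10 that is also induced by TGF-beta, differed between the hairpins. It stood at 8.14, 8.34 and 8.09 FPKM in shSNHG1#2 and at 6.62, 5.55 and 5.23 FPKM in shSNHG1#1, against 7.03, 7.08 and 7.24 FPKM in shNC. The shSNHG1#2 libraries lay above shNC and the shSNHG1#1 libraries below it, with no overlap. KLF11 fell 1.30-fold with shSNHG1#1 (log2 fold change -0.38, SE 0.08, adjusted p = 0.0032), while with shSNHG1#2 it did not pass (log2 fold change 0.11, SE 0.08, adjusted p = 0.30). Tested directly, shSNHG1#2 was 1.4-fold above shSNHG1#1 (log2 fold change 0.49, SE 0.08, 95% interval 0.31 to 0.67, adjusted p = 0.0099). Without shSNHG1#1 replicate 1, the library of its group closest to shNC, this difference was 0.60, and the log2 fold change with shSNHG1#1 was -0.50 (adjusted p = 9.8e-05).

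KLF13, which takes part in CCL5 expression in T cells, was the steadiest member. It stood at 25.01, 25.25 and 25.12 FPKM in shSNHG1#2 and at 24.94, 24.59 and 23.75 FPKM in shSNHG1#1, against 24.30, 23.83 and 25.44 FPKM in shNC. Both hairpin groups lay within or overlapped the range of shNC. KLF13 did not pass the test with shSNHG1#2 (log2 fold change -0.04, adjusted p = 0.38) or with shSNHG1#1 (log2 fold change -0.06, 95% interval -0.13 to 0.01, adjusted p = 0.12). Without shNC replicate 1 the shSNHG1#1 value of KLF13 was -0.09 with an adjusted p of 0.0431, and without shSNHG1#1 replicate 1 it was -0.09 with an adjusted p of 0.0565.

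Set against each other, the hairpins differed at KLF11 among the members, which was higher with shSNHG1#2, and 0 members were lower. Of all features tested, 3.12% passed in this contrast, 2% higher and 1.12% lower, so 64.0% of the calls were higher, against 74.8% with library totals alone. The libraries of the 2 hairpins did not overlap in CPM for 4 members, against 20.8% of all features. At an unadjusted p below 0.05 by edgeR, 4 members were higher and 1 was lower with shSNHG1#2, against 1 and 0 after adjustment. The share of all features at the unadjusted threshold was not counted, so these counts have no background to be read against. DESeq2 called 1 member lower, KLF4 (log2 fold change -0.18, adjusted p = 0.0380). In edgeR the difference of KLF4 was also -0.18, with a 95% interval of -0.30 to -0.06 and an adjusted p of 0.13. For KLF5, KLF6 and KLF10 the log2 differences were 0.11, 0.09 and 0.08, and their 95% intervals ran from 0.02 to 0.20, 0.01 to 0.17 and 0.01 to 0.15. For KLF2 the interval ran from -0.51 to 0.05 and for KLF9 from -0.22 to 0.12.

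**Figure D2:**
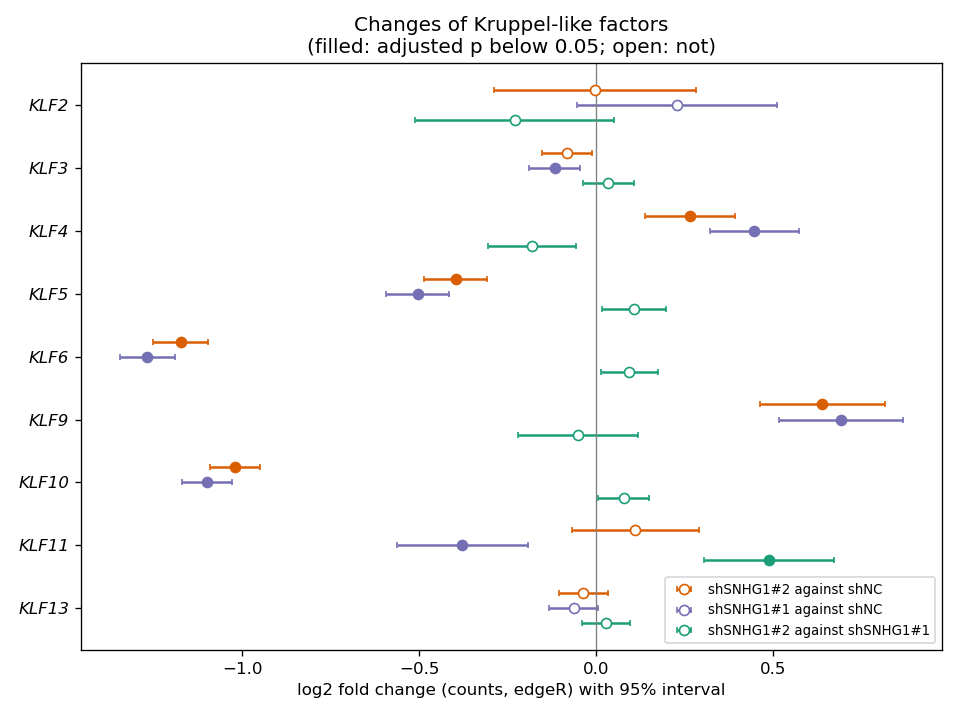
Log2 fold change of each Kruppel-like factor on counts by edgeR (horizontal axis) with its 95% interval, for shSNHG1#2 against shNC, shSNHG1#1 against shNC and shSNHG1#2 against shSNHG1#1; filled points have an adjusted p below 0.05. KLF6 at -1.17 and -1.27 and KLF10 at -1.02 and -1.10 were the lowest against shNC, KLF9 at 0.64 and 0.69 was the highest, and KLF11 was at 0.49 between the hairpins.

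The order of levels among the members, compared per length in FPKM, differed between the groups. In shSNHG1#2, KLF5 and KLF10 led with overlapping ranges, followed by KLF13, by KLF6 and KLF3 with overlapping ranges, and by KLF4, KLF11, KLF2 and KLF9. In shSNHG1#1, KLF10 and KLF5 led with overlapping ranges, followed by KLF13, by KLF4, KLF3 and KLF6, each overlapping its neighbour, by KLF2 and KLF11, also overlapping, and by KLF9. In shNC the order was KLF10, KLF5, KLF6, KLF13, KLF3, KLF4, KLF11, KLF2 and KLF9, and no neighbouring ranges overlapped. The mean level of KLF10 was 0.989 times that of KLF5 in shSNHG1#2 and 1.01 times in shSNHG1#1, against 1.55 times in shNC. Mean KLF6 was 0.771 times KLF13 in shSNHG1#2 and 0.732 times in shSNHG1#1, against 1.70 times in shNC. The most abundant member exceeded the least abundant 16.5-fold in shSNHG1#2 and 14.9-fold in shSNHG1#1, against 52.2-fold in shNC. The 9 means summed to 202 FPKM in shSNHG1#2 and 191 FPKM in shSNHG1#1, against 282 FPKM in shNC.

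**Figure D3:**
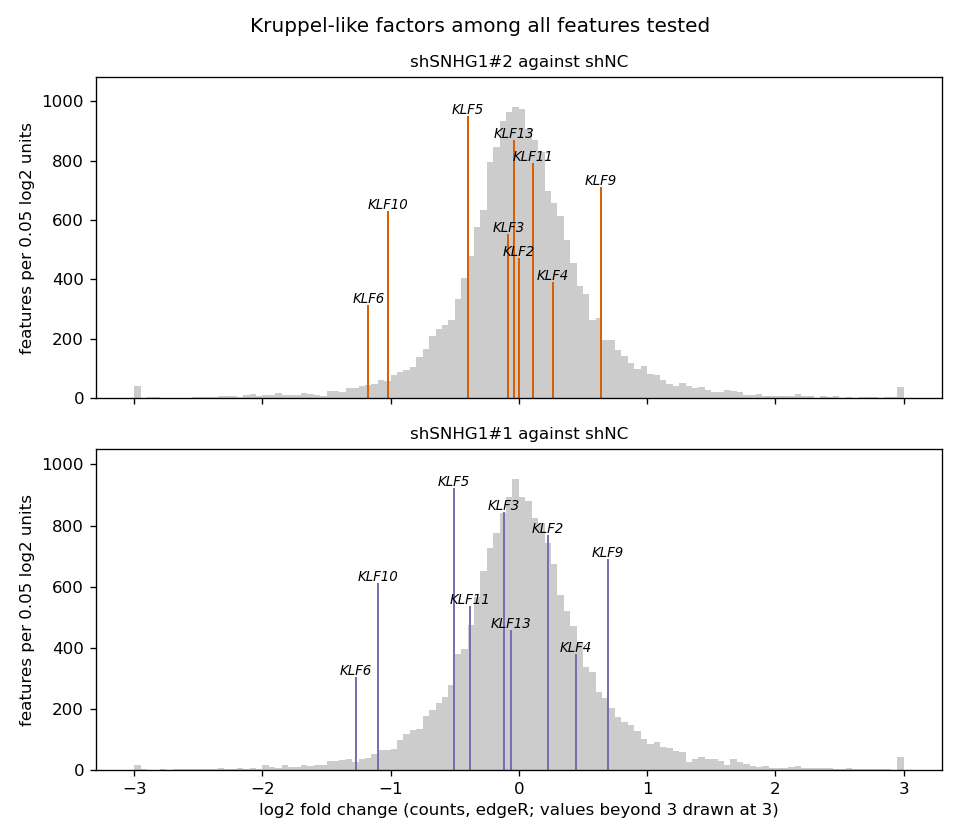
Number of features in each 0.05-wide step of log2 fold change (vertical axis) against the log2 fold change (horizontal axis) over the 18767 features tested, for shSNHG1#2 against shNC above and shSNHG1#1 against shNC below, with lines at the 9 Kruppel-like factors. KLF6 and KLF10 stood in the lower tail, with 1.91% to 3.15% of features lower, and KLF13, KLF3 and KLF2 near the centre.

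For each member, the 3 genes with the most similar profile over the 9 libraries were listed among 12794 genes, as the smallest root mean square difference of log2 CPM, each profile centred on its own mean. This is a description with no test. For KLF6 these were GPRC5A (difference 0.0353), RND3 (0.0410) and ZNF160, and for KLF10 they were LDHA (0.0396), PPFIBP2 (0.0407) and YEATS2. GPRC5A averaged 104 FPKM in shSNHG1#2 and 97.6 FPKM in shSNHG1#1, against 256 FPKM in shNC, and LDHA averaged 707 FPKM in shSNHG1#2 and 664 FPKM in shSNHG1#1, against 1350.1 FPKM in shNC. For KLF5 the list was ZNF507, LMO7 and MALT1, for KLF4 VPS25, CTNNBIP1 and RPS6KA4, and for KLF9 ACAP3, PHGDH and TMEM187. For KLF11 it was CRTAC1, RASL11A and C1R, for KLF3 CD47, SUZ12 and ABLIM1, for KLF2 COPE, NUBP2 and HYPK, and for KLF13 KIAA0556, TMEM94 and ATXN7L3. KLF2 and KLF11 had the least similar first neighbours, at 0.0716 and 0.0755. The spread of a member around its own mean, on the same scale, was 0.578 for KLF6, 0.502 for KLF10 and 0.0383 for KLF13.

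Among the 8 other Kruppel-like factor genes on the list, 5 were tested and 2 passed against shNC, both lower with each hairpin, and the median log2 fold change of the 5 was -0.09 in each contrast. Over all features, 46.2% passed with shSNHG1#2 and 48.1% with shSNHG1#1. KLF7, the closest relative of KLF6, averaged 7.02 ± 0.168 FPKM in shSNHG1#2 and 5.78 ± 0.271 FPKM in shSNHG1#1, against 15.3 ± 0.208 FPKM in shNC (SD, n = 3). It fell 2.34-fold with shSNHG1#2 (log2 fold change -1.22, SE 0.03, adjusted p = 6.4e-10) and 2.76-fold with shSNHG1#1 (log2 fold change -1.47, SE 0.03, adjusted p = 1.5e-10), and the hairpins differed by 0.24 (adjusted p = 0.0040). KLF12, another CtBP-binding repressor, averaged 1.77 ± 0.0781, 1.65 ± 0.245 and 2.49 ± 0.182 FPKM in shSNHG1#2, shSNHG1#1 and shNC, and fell 1.4-fold and 1.51-fold with shSNHG1#2 and shSNHG1#1. KLF16 averaged 13.8, 13.6 and 14.1 FPKM in the same order of groups and did not pass. KLF8 and KLF17 stayed below 0.3 FPKM on average and did not pass, and KLF1, KLF14 and KLF15 were too low to be tested.

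Of 9 genes of the SP family, which binds the same GC boxes, 6 were tested. With shSNHG1#2, 1 rose and 2 fell, and with shSNHG1#1, 1 rose and 5 fell, with medians of -0.17 and -0.27 on the log2 scale. The shares over all features were 23.3% higher and 22.8% lower with shSNHG1#2, and 24.5% higher and 23.5% lower with shSNHG1#1. SP3 averaged 30.3 ± 0.786 FPKM in shSNHG1#2 and 27.2 ± 0.830 FPKM in shSNHG1#1, against 41.0 ± 0.741 FPKM in shNC, a fall of 1.36-fold and 1.49-fold. SP1 fell 1.11-fold with shSNHG1#2 and 1.19-fold with shSNHG1#1. The SP1 call with shSNHG1#2 was lost in FPKM with limma (adjusted p = 0.105). SP6, at 0.597, 0.657 and 0.403 FPKM on average in shSNHG1#2, shSNHG1#1 and shNC, was the gene that rose, and with shSNHG1#2 its call was lost in 7 of 9 fits that each left out a library, so that 0 SP genes rose with shSNHG1#2 in the fit without shSNHG1#1 replicate 1. SP9, called lower with shSNHG1#1 (adjusted p = 0.044), lost its call in 4 of these 9 fits.

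**Figure D4:**
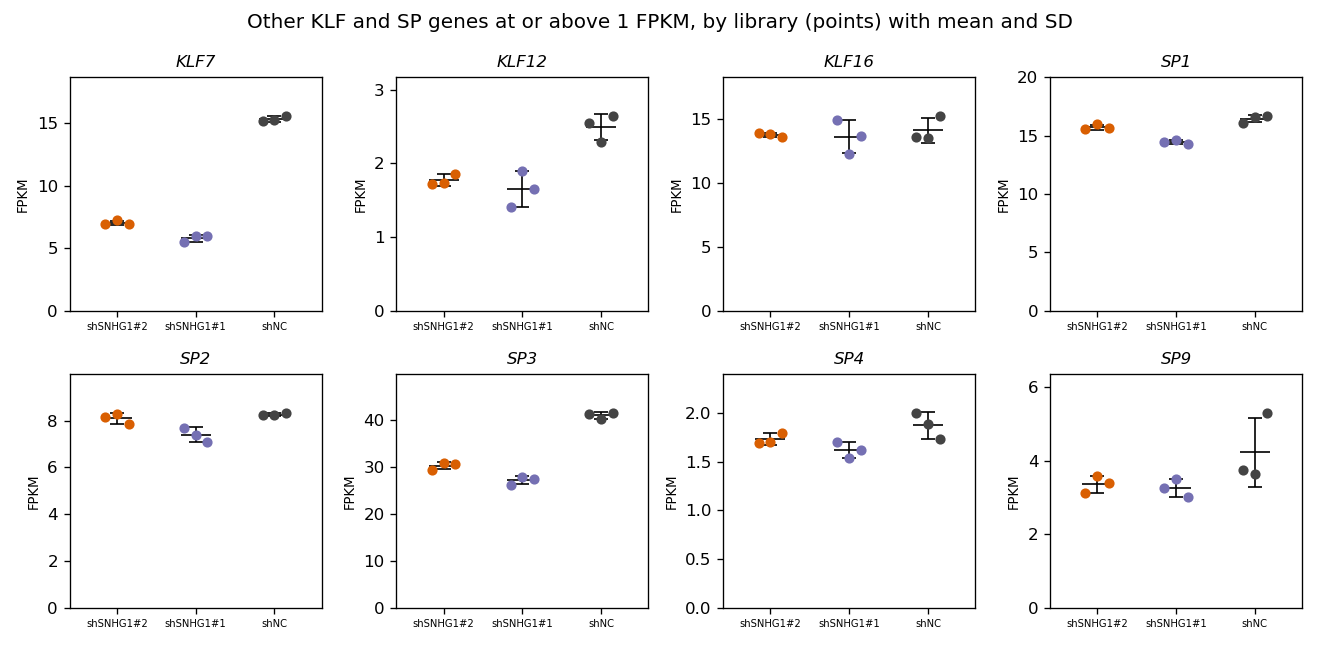
Level in FPKM (vertical axis, from 0) of KLF7, KLF12, KLF16, SP1, SP2, SP3, SP4 and SP9 in every library, with shSNHG1#2 on the left, shSNHG1#1 in the middle and shNC on the right; points are libraries, the dash is the mean and the bar 1 SD. KLF7 was at 7.02 and 5.78 FPKM on average with shSNHG1#2 and shSNHG1#1, against 15.3 FPKM in shNC, and SP3 lay below shNC in all 6 hairpin libraries.

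Of 15 genes of the corepressors and coactivators that Kruppel-like factors recruit, 1 rose and 9 fell with shSNHG1#2, and 1 rose and 8 fell with shSNHG1#1, with medians of -0.18 and -0.29 on the log2 scale, beside 22.8% and 23.5% of all features that fell. CREBBP, which encodes the acetyltransferase CBP, averaged 7.89 ± 0.0800 FPKM in shSNHG1#2 and 6.93 ± 0.388 FPKM in shSNHG1#1, against 13.9 ± 0.576 FPKM in shNC (SD, n = 3), and fell 1.81-fold and 1.99-fold. KAT2B, another acetyltransferase gene, fell 1.59-fold with shSNHG1#2 and 1.62-fold with shSNHG1#1. CTBP2, a partner of KLF3, fell 1.4-fold and 1.34-fold, and SAP30, a SIN3A complex gene, fell 1.84-fold and 1.90-fold. The gene that rose was HDAC2, a deacetylase of the same complex, 1.08-fold with shSNHG1#2 and 1.12-fold with shSNHG1#1. The share of all features that rose was 23.3% with shSNHG1#2 and 24.5% with shSNHG1#1. Of 7 tested genes of Kruppel-like factor protein turnover, 2 rose and 3 fell with shSNHG1#2, and 3 rose and 3 fell with shSNHG1#1 (medians 0.08 and 0.02). Among them the ubiquitin ligase genes FBXO32 and SMURF1 fell 1.36-fold and 1.23-fold with shSNHG1#2 and 1.5-fold and 1.24-fold with shSNHG1#1, and BTRC rose 1.2-fold and 1.17-fold. VHL, the other gene that rose with shSNHG1#2 (adjusted p = 0.046), lost that call in 7 of 9 fits that each left out a library, the fit without shSNHG1#1 replicate 1 among them, in which 1 gene of the list rose with shSNHG1#2.

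Each list of genes that act upstream held genes that rose and genes that fell. Among all features tested, 23.3% rose and 22.8% fell with shSNHG1#2, and 24.5% rose and 23.5% fell with shSNHG1#1. Of 8 genes of the ERK5 and MEF2 axis, which induces KLF2 and KLF4 in endothelial cells, 2 rose and 4 fell with each hairpin (medians -0.22 with shSNHG1#2 and -0.13 with shSNHG1#1), and without shSNHG1#1 replicate 1 a single gene rose with shSNHG1#1. MEF2A fell 1.61-fold with shSNHG1#2 and 1.73-fold with shSNHG1#1, MAPK7, which encodes ERK5, fell 1.4-fold and 1.53-fold, and MAP3K3 rose 1.32-fold and 1.18-fold. Of 4 FOXO genes, 1 rose and 1 fell with each hairpin, FOXO1 rising 1.49-fold and 1.24-fold and FOXO3 falling 1.34-fold and 1.54-fold with shSNHG1#2 and shSNHG1#1 (medians 0.14 and 0.18). Of 8 genes of the glucocorticoid receptor and its induced genes, a group to which KLF9 is tied, 1 rose and 6 fell with each hairpin, with medians of -0.62 and -0.56. NR3C1, the receptor gene, fell 1.5-fold with shSNHG1#2 and 1.68-fold with shSNHG1#1, and DUSP1, a phosphatase gene, averaged 45.5 ± 1.5 FPKM in shSNHG1#2 and 50.1 ± 4.52 FPKM in shSNHG1#1, against 220 ± 4.95 FPKM in shNC. FKBP5 rose 1.66-fold and 1.72-fold. Of 11 genes of the early TGF-beta response, to which KLF10 and KLF11 belong, 4 rose and 7 fell with shSNHG1#2 and 3 rose and 7 fell with shSNHG1#1 (medians -0.23 and -0.40). SMAD7, an inhibitor of the pathway, fell 1.52-fold with shSNHG1#2 and 1.66-fold with shSNHG1#1.

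Genes reported as targets of the members were found on both sides. These lists were chosen with earlier results of these data known, and they are no independent evidence of a direction. The counts of each target list stand beside 23.3% of all features that rose and 22.8% that fell with shSNHG1#2. With shSNHG1#1 these shares were 24.5% and 23.5%. Of 9 tested KLF4 targets, 2 rose and 5 fell with each hairpin (medians -0.21 with shSNHG1#2 and -0.10 with shSNHG1#1). CDKN1A, a cell cycle inhibitor gene that KLF4 is known to induce, averaged 165 ± 2.23 FPKM in shSNHG1#2 and 163 ± 8.28 FPKM in shSNHG1#1, against 104 ± 1.93 FPKM in shNC, and rose 1.51-fold and 1.52-fold. CCND1, which KLF4 is known to repress, rose 1.41-fold and 1.53-fold. CDKN1A also stands on the list of KLF6 targets. Among the genes that fell, CDKN1B, another cell cycle inhibitor gene, fell 1.35-fold with shSNHG1#2 and 1.58-fold with shSNHG1#1, and the keratin gene KRT19 fell 1.44-fold and 1.66-fold. Of 11 tested KLF5 targets, 7 rose and 4 fell with shSNHG1#2, and 6 rose and 4 fell with shSNHG1#1 (medians 0.38 and 0.55). MYC, a growth-promoting gene, averaged 23.7 ± 0.582 FPKM in shSNHG1#2 and 20.9 ± 0.840 FPKM in shSNHG1#1, against 58.0 ± 0.929 FPKM in shNC, and CDK1, the mitotic kinase gene, rose 1.53-fold and 1.66-fold.

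Of 5 tested KLF2 targets, 1 rose and 3 fell with shSNHG1#2, and 2 rose and 2 fell with shSNHG1#1 (medians -1.10 and -0.68). EDN1, the gene of the vasoconstrictor endothelin, fell 2.15-fold with shSNHG1#2 and 2.07-fold with shSNHG1#1, and THBD, which encodes the anticoagulant thrombomodulin, rose 1.36-fold and 1.29-fold. The second gene that rose with shSNHG1#1 was S1PR1, a sphingosine phosphate receptor gene of endothelial cells. It stood at 0.09, 0.17 and 0.08 FPKM in shSNHG1#2 and at 0.56, 0.14 and 0.19 FPKM in shSNHG1#1, against 0.09, 0.05 and 0.05 FPKM in shNC. Its highest value was in shSNHG1#1 replicate 1, the library in which endothelial markers were also highest. With shSNHG1#1 its log2 fold change was 2.19 (adjusted p = 0.016), and without that library it was 1.31 (adjusted p = 0.105), so that 1 KLF2 target rose. Of 9 KLF6 targets, 3 rose and 5 fell with each hairpin (medians -0.32 with shSNHG1#2 and -0.28 with shSNHG1#1). ATF3, a stress-induced factor gene, fell 2.21-fold with shSNHG1#2 and 2.32-fold with shSNHG1#1, and PLAU, the urokinase gene, rose 1.58-fold and 1.89-fold. Of 10 tested targets of KLF9, KLF10, KLF11, KLF13 and KLF3, 4 rose and 2 fell with each hairpin (medians 0.25 with shSNHG1#2 and 0.09 with shSNHG1#1). CCL5, a chemokine gene that KLF13 is known to induce, averaged 302 ± 12.2 FPKM in shSNHG1#2 and 337 ± 29.9 FPKM in shSNHG1#1, against 148 ± 4.49 FPKM in shNC, and rose 1.95-fold and 2.21-fold, while KLF13 itself did not pass the test. C1QTNF12, which also rose, lost its call with shSNHG1#2 (adjusted p = 0.024) in 5 of 9 fits that each left out a library.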

How the data were processed

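Per the file headers, the authors deposited 2 values for each feature in each library: an estimated count, which need not be whole, and an FPKM, which is scaled to transcript length and mapped fragments. Names of the columns were matched to the sample titles (sun_1 to shSNHG1#1, sun_2 to shSNHG1#2, sun_NC to shNC). The submitters' processing notes list, without roles, RSEM 1.2.12, HISAT2 2.0.4, DESeq2 1.4.5 and Bowtie2 2.2.5. Genome build, annotation and strand setting were not given in the sources used here.

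Estimated counts were rounded and tested in R 4.3.3 with edgeR 4.0.16. filterByExpr on the 3 groups kept 18767 of 27407 features, counts were scaled by TMM, and 1 quasi-likelihood model of all 9 libraries gave the F tests. Adjustment was by Benjamini-Hochberg over all features tested at a threshold of 0.05. Standard errors came from the F statistic and intervals cover 95%. The scripts were checked on simulated counts. Fold changes are hairpin over shNC, or shSNHG1#2 over shSNHG1#1. Alternatives were library totals alone, DESeq2 1.42.0, no filter, only the groups compared, limma 3.58.1 on log2(FPKM + 1) and log2(FPKM + 0.1), the replicate number as a block, and leaving out each library. Their use for genes of the other lists was chosen after seeing the data.

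The members, the gene lists and the tests were chosen with earlier results of these data known. Named from each list were the members, all other KLF and SP genes, and up to 4 genes with the smallest p against shNC. Of these, the text gives a part, picked after their values were seen, and HDAC2, S1PR1, GNAT2, EPCAM, ELF3, ENO2, SNAP25, CDKN1B and THRB were added in the same way where the rule does not name them. Like profiles were sought among genes whose log2 CPM (prior count of 2) averaged 2 or more. Replicates of a group differed by 3.12 to 6.29 in chi-square per degree of freedom over features with at least 50 counts, which is more than sampling noise gives. SNHG1 is not reported here.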

Additional observations from a re-analysis of the deposited data

Results flagged for a closer look

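KLF11 differed between the hairpins. In shSNHG1#2 it averaged 8.19 ± 0.132 FPKM and in shSNHG1#1 5.80 ± 0.728 FPKM, against 7.12 ± 0.110 FPKM in shNC (SD, n = 3). The direct test gave a log2 difference of 0.49 (SE 0.08, adjusted p = 0.0099 by edgeR), with shSNHG1#2 higher in 3 of 3 libraries. Leaving out each library in turn gave 0.43 to 0.60, with an adjusted p of at most 0.0394. In the same contrast 3.72% of all features had a higher log2 fold change.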

How the results depend on the processing

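Of 430 alternative values of the 9 members, 412 kept their direction and their side of the threshold, 7 came to pass it, 1 no longer passed and 10 changed sign. The sign changes were at values near 0 that did not pass the test. For KLF2 with shSNHG1#2 the log2 fold change was 0.0614 with library totals alone, 0.0672 with log2(FPKM + 1) and 0.0779 with log2(FPKM + 0.1), and leaving out each library gave -0.0986 to 0.0442. For KLF13 with shSNHG1#2 the 3 settings gave 0.0289, 0.0342 and 0.0355. For KLF9 between the hairpins, leaving out each library gave -0.0974 to 0.0199. KLF3 with shSNHG1#1 lost its call with library totals alone, so 4 members were lower there. Over all features that setting gave 5264 higher and 3819 lower with shSNHG1#1, against 4606 and 4417 with TMM. Counts of members that passed against shNC were otherwise 2 higher and 5 to 6 lower with shSNHG1#1, and 2 higher and 3 to 4 lower with shSNHG1#2, when each library was left out. Over all features these fits gave 3922 to 4370 higher and 4084 to 4569 lower with shSNHG1#1. With shSNHG1#2 they gave 3726 to 4249 higher and 3837 to 4504 lower. DESeq2 called 1 member lower between the hairpins, KLF4, and gave no adjusted p there for KLF2 and KLF9, so these have no value.

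Over all features between the hairpins, 375 were higher and 211 lower. DESeq2 gave 602 and 368. The count of lower features was 145 with library totals alone, 110 with only the groups compared, 100 with log2(FPKM + 1) and 99 with log2(FPKM + 0.1). Leaving out each library gave 240 to 342 higher and 57 to 198 lower. Of 1902 alternative values of called genes from the other lists, 1799 kept their call, 103 lost it and 0 changed sign. Only values called in the main fit entered, so a call could be lost but not gained, and a change of sign was unlikely. The cause of the shifts between settings was not tested. The replicate number as a block left the members at 2 higher and 5 lower with shSNHG1#1, 2 and 3 with shSNHG1#2, and 1 and 0 between the hairpins. Over all features the block gave 4443 higher and 4309 lower with shSNHG1#1, 4231 and 4190 with shSNHG1#2, and 296 and 137 between the hairpins. Deviations of libraries that share a number correlated at -0.14 to 0.04, and 0 of 9 libraries correlated best with their own number. No pairing by number was detected, and with 3 libraries in each group this cannot show that none exists.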
